A study of Mus musculus with 4 samples.

Results

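The comparison described here sets a combination-treated lung library against a library treated with YKL-5-124 alone, that is, what was different when an anti-PD-1 antibody was given on top of CDK7 inhibition. Its members are all barcodes of these 2 of the 4 libraries that held at least 500 unique molecular identifiers (UMIs) and at least 300 genes, with at most 10% of UMIs from mitochondrial genes. After removal of doublets and of the minor copies described below, they came to 7224 of the 12536 cells kept in the series, 3682 with YKL-5-124 and 3542 in the combination. All mice carried small cell lung cancer (SCLC) grown from tumour cells that had been injected into the lung. The YKL-5-124 group received the inhibitor at 10 mg/kg on each weekday. The combination group received the same dosing plus 200 µg per mouse of anti-PD-1 (clone 29F.1A12) on Mondays, Wednesdays and Fridays. The control group received vehicle with isotype IgG, and the anti-PD-1 group received the antibody at the same dose without the inhibitor. Whole perfused lungs were digested, and live cells were sorted on DAPI, so every library mixes tumour, immune and stromal cells. The sources used here give neither strain, age and sex nor how many animals went into a library. With 1 library for each treatment there is no replicate spread to compare with, and treatments could not be tested. Intervals are exact 95% intervals that cover counting error only, not differences between animals. Values of all 4 libraries are given in the order control, anti-PD-1, YKL-5-124 and combination.

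PD-1, encoded by Pdcd1, is an inhibitory receptor that T cells display after activation, and its ligand PD-L1 (Cd274) is displayed by tumour and myeloid cells. Antibodies that block the receptor remove this brake and are used to raise T cell activity against tumours. CDK7 activates the cyclin-dependent kinases that drive the cell cycle and, as part of the general transcription factor TFIIH, phosphorylates RNA polymerase II. SCLC is a neuroendocrine carcinoma that depends on rapid division, and its mouse models are commonly poor in infiltrating T cells.

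Before any result, 1 property of the libraries needs stating. After the filters above, YKL-5-124 and the combination shared 469 barcodes, where 22.8 would be shared from the sizes of the lists, and 450 barcodes passed as cells in all 4 libraries. Of 14411 filtered cells, 1532 held under 20% of the UMIs that their barcode had over the 4 libraries, with a median of 2.25%. These minor copies were left out, 355 from YKL-5-124 and 393 from the combination, and 12 shared barcodes then remained where 17.7 would be shared from list size. When kept, 346 and 375 of them fell among tumour-like cells, so this choice bears mostly on the tumour share, which is given both ways below. How the copies arose was not tested.

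The libraries held 22384282, 17329001, 22357198 and 22950622 UMIs. Median depth per kept cell was 2140 UMIs with YKL-5-124 and 2411 in the combination, and median mitochondrial shares were between 1.82% and 2.01% in the 4 libraries. Cells of all libraries were clustered together and named from marker genes. The tumour-like cells carried the neuroendocrine markers Calca, Ddc and Chga with Epcam. These are among the markers used to name them, so they are no separate check of the label SCLC. Most cells of each library were immune. Free RNA, read from barcodes with 10 to 100 UMIs, was richer in neutrophil transcripts with YKL-5-124: S100a8, a calcium-binding protein abundant in neutrophils, stood at 526, 594, 2370 and 677 CPM, the UMIs of a gene per 1000000 UMIs. Neutrophil genes that appear lower in other lineages of the combination are therefore given beside these values and not as results.

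The combination library held more T, NK, dendritic and endothelial cells and fewer neutrophils, B cells and tumour cells than the YKL-5-124 library. T cell-like cells made up 28.1%, 26.7%, 19.9% and 29.8% of kept cells. Their share was 1.5-fold (95% interval 1.36 to 1.65) that of YKL-5-124 alone, whereas anti-PD-1 without the inhibitor stood at 0.948-fold of control. The combination thus had about the T cell share of the control library, and YKL-5-124 was the lowest of the 4. NK cell-like cells, innate lymphocytes that kill without antigen receptors, made up 10.1%, 12.8%, 7.01% and 10.5%, again 1.5-fold (95% interval 1.28 to 1.77).

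Neutrophil-like cells had the widest gap between these libraries in percentage points. Their shares were 3.26%, 4.68%, 18.6% and 5.87%, which put the combination at 0.316-fold (95% interval 0.269 to 0.370) of YKL-5-124 and near the 2 libraries without the inhibitor. Monocyte or macrophage-like cells, by contrast, were frequent in both inhibitor-treated libraries, at 7.13%, 9.54%, 14.5% and 18%, with a ratio of 1.24 (95% interval 1.10 to 1.39). Because shares add up to a whole, the ratios were also taken outside these 2 myeloid lineages. There T cell-like cells made up 31.4%, 31.1%, 29.7% and 39.1%, a ratio of 1.31 (95% interval 1.2 to 1.45), so the combination then stood above all 3 other libraries.

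B cell-like cells made up 20.9%, 19.2%, 19.1% and 14.0%, a ratio of 0.733 (95% interval 0.652 to 0.823). Tumour-like cells made up 22.4%, 20.2%, 15.7% and 12.5%, a ratio of 0.80 (95% interval 0.705 to 0.907). This share was lowest in the combination, and it was 0.907-fold of YKL-5-124 with minor copies kept and 0.703-fold outside the myeloid lineages. Conventional dendritic cell-like cells, which present antigen to T cells, numbered 60, 54, 67 and 113 and made up 1.95%, 2.41%, 1.82% and 3.19%, a ratio of 1.75 (95% interval 1.28 to 2.41). The difference lay mainly in a cluster led by Fscn1, Ccl22, Ccl17 and Fabp5, with 28 and 71 cells in the inhibitor-treated libraries, beside 39 and 42 in the other dendritic cluster. Endothelial cell-like cells numbered 80, 16, 18 and 70, a ratio of 4.04 (95% interval 2.38 to 7.21), and airway or alveolar epithelial cell-like cells 7, 9, 15 and 41.

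**Figure D1:**
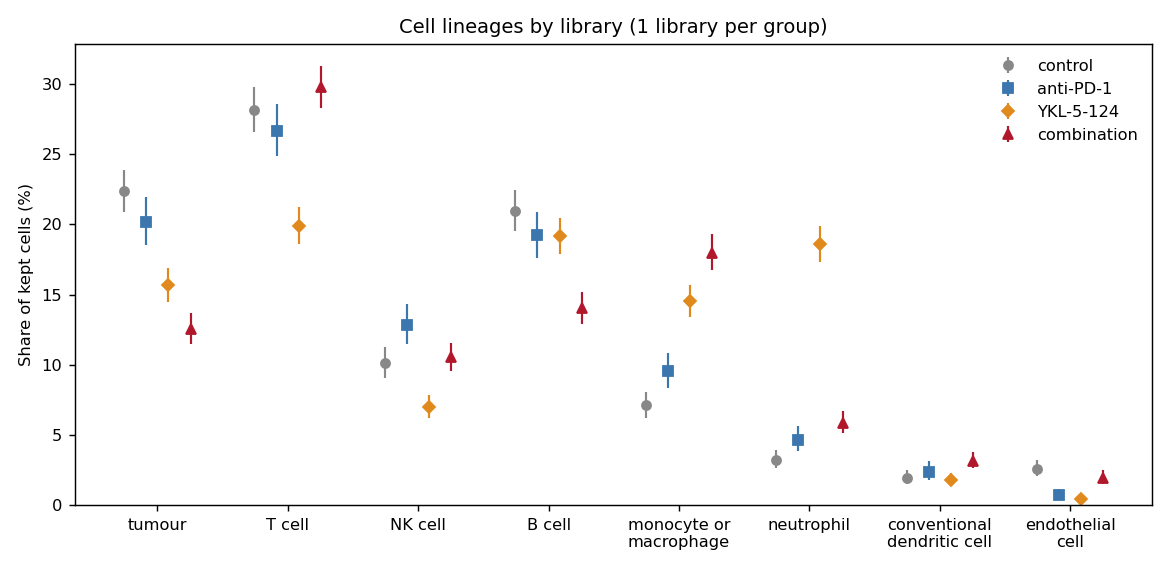
Share of kept cells (percent, vertical axis) in each of 8 lineages for the 4 libraries; bars are exact 95% binomial intervals, which cover counting only. Neutrophil-like cells stand at 18.6% with YKL-5-124 and at 5.87% in the combination, and T cell-like cells at 19.9% and 29.8%.

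Within T cell-like cells, the combination held a larger part of regulatory T cells and a smaller part of naive cells. Regulatory T-like cells, which restrain other T cells and were named from Foxp3, Ikzf2, Ctla4 and similar markers, numbered 16, 26, 43 and 103 (1 sub-cluster). They made up 1.85%, 4.35%, 5.87% and 9.77% of T cell-like cells, a ratio of 1.66 (95% interval 1.15 to 2.43) over YKL-5-124. With anti-PD-1 against control, in libraries not used for that ratio, it was 2.35 (95% interval 1.21 to 4.68). As a share of all kept cells, regulatory T-like cells were 1.17% with YKL-5-124 and 2.91% in the combination.

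Naive T-like cells, marked by the lymph node homing receptor gene Ccr7 among others, made up 58.2%, 52.0%, 48.0% and 38.7% of T cell-like cells, a ratio of 0.807 (95% interval 0.698 to 0.934). CD4 effector or memory T-like cells made up 7.06%, 9.03%, 9.15% and 11.2%, and the ratio of 1.22 had an interval from 0.899 to 1.68 that includes 1. CD8 effector or memory T-like cells, which hold the cytotoxic T cells, made up 12.3%, 15.6%, 12.2% and 11.3%, and the ratio of 0.929 had an interval from 0.700 to 1.24 that includes 1. As a share of all kept cells they were 2.42% with YKL-5-124 and 3.36% in the combination, a ratio of 1.39 (95% interval 1.05 to 1.85).

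Cycling T-like cells numbered 6, 10, 37 and 62, or 5.05% and 5.88% of T cell-like cells in the 2 inhibitor-treated libraries. IL-17 type T-like cells, which recruit neutrophils to mucosal tissue, numbered 45, 13, 39 and 33. Their part of T cell-like cells was 0.588-fold (95% interval 0.358 to 0.959) that of YKL-5-124 alone. A last sub-cluster, left unnamed and led by Il13, Tnfsf8, Ccl1 and Gata3, numbered 6, 3, 4 and 38 cells and is called sub-cluster 12 below. Its leading genes belong to type 2 lymphocytes and also mark ILC2, so whether all of its cells are T cells was not tested.

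**Figure D2:**
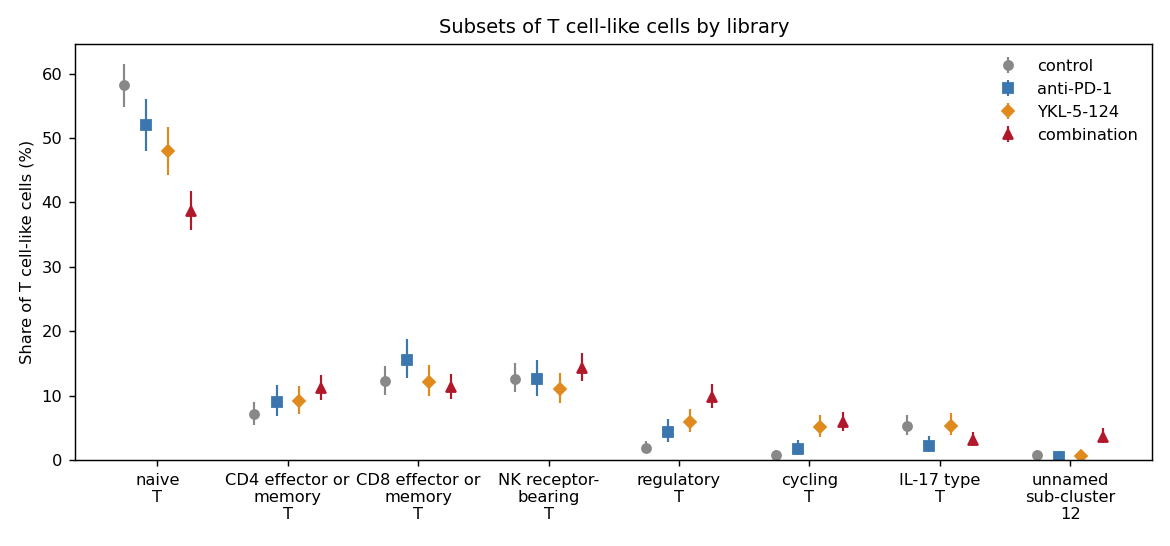
Share of T cell-like cells (percent, vertical axis) in 7 named subsets and the unnamed sub-cluster 12 for the 4 libraries; bars are exact 95% binomial intervals. The regulatory part is 5.87% with YKL-5-124 and 9.77% in the combination, and the naive part is 48.0% and 38.7%.

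At the level of genes, T cell-like cells of the combination carried more transcript of checkpoint and co-stimulatory receptors than those of YKL-5-124 alone. A gene is called higher or lower here when its ratio, smoothed by adding 10 CPM to both sides, reaches 1.5-fold. This is a cut on size only, without a test. Of 6869 genes with a mean of at least 10 CPM in T cell-like cells, 66 were higher (0.961%) and 53 lower (0.772%). All of these calls have a counting interval that leaves 1, but that interval holds no spread between cells or animals. Of 23 measured checkpoint and exhaustion genes, 3 were higher and none lower, with a median log2 ratio of 0.18 beside -0.03 over all genes.

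Pdcd1, the gene of the antibody's own target, stood at 92.7, 78.6, 74.2 and 133 CPM in T cell-like cells. The combination was 1.79-fold (95% interval 1.48 to 2.17) YKL-5-124 and the highest of the 4 libraries, while anti-PD-1 alone was below control. Its log2 ratio of 0.76 was 0.497, short of 1.5-fold, with a per-cell marker gate, which assigns each cell to the lineage with most marker UMIs instead of by cluster. Counted per cell at an equal depth of 800 UMIs, 4.38%, 4.31%, 4.04% and 7.21% of T cell-like cells had a Pdcd1 UMI, against none of 696 and of 491 B cell-like cells in the 2 libraries compared. The exact 95% upper limits of these B cell shares were 0.529% and 0.748%, below the T cell shares. In free RNA Pdcd1 stood at 17.9 CPM with YKL-5-124 and 33.3 CPM in the combination, and the part of free RNA in its ratio was not tested. Without thinning, 8.80%, 10.5%, 10.8% and 16.2% of T cell-like cells had a Pdcd1 UMI. The deposited counts are of RNA and say nothing of how much receptor the antibody occupied.

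Tnfrsf4, which encodes the co-stimulatory receptor OX40, stood at 124, 246, 222 and 439 CPM, and the combination was 1.97-fold (95% interval 1.77 to 2.20) YKL-5-124. Its free RNA level was 74.4 CPM with YKL-5-124 and 148 CPM in the combination, and the part of free RNA in its ratio was not tested. Lag3, an inhibitory receptor that binds MHC class II, stood at 110.3, 98.0, 53.7 and 92.2 CPM. Its ratio was 1.72 (95% interval 1.37 to 2.17), and here the combination came back to the range of control and anti-PD-1 from a low YKL-5-124 value. The co-stimulatory receptor gene Tnfrsf9 (4-1BB) was also lowest with YKL-5-124, at 90.7, 111, 60.9 and 95 CPM, and was just short of the call. Ctla4, a further inhibitory receptor, was 1.24-fold (95% interval 1.09 to 1.41) YKL-5-124, short of the call.

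These receptors are borne by regulatory T cells too, so the values were taken again without regulatory T-like cells and sub-cluster 12. Pdcd1 was then 1.63-fold (95% interval 1.32 to 2.02), Tnfrsf4 1.82-fold (95% interval 1.56 to 2.14) and Lag3 1.90-fold (95% interval 1.48 to 2.47) YKL-5-124. In this remainder 0.864% of genes were called higher, and 4 of 23 measured checkpoint genes were. Outside these cells the gap was thus wider for Lag3 and slightly narrower for Pdcd1 and Tnfrsf4.

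Split by subset, Pdcd1 differed most in CD8 effector or memory T-like cells, at 188, 140.0, 62.1 and 185 CPM, from 15 and 71 UMIs with YKL-5-124 and the combination. That is 2.98-fold (95% interval 1.69 to 5.59), with the combination at the control level. These cells came from 2 sub-clusters, which held 47 and 42 cells with YKL-5-124 and 71 and 48 in the combination. In them 10.2% of 6529 genes were called higher and 13.1% lower, and of 25 measured checkpoint genes 9 were higher and none lower. Tnfrsf9 stood at 299, 122, 29.0 and 148 CPM there. In CD4 effector or memory T-like cells Pdcd1 was 1.24-fold (95% interval 0.829 to 1.88), an interval that includes 1. Regulatory T-like cells held Pdcd1 at 549, 379, 115 and 230.3 CPM, and both inhibitor-treated libraries lay below the 2 others there. Whether these subset ratios differ from each other was not tested.

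Regulatory T-like cells did not carry more Tnfrsf4 in the combination, at 2332, 3031, 1866 and 1803 CPM and 0.966-fold (95% interval 0.823 to 1.14). Foxp3, the factor that defines them, stood at 11.6, 14.7, 15.9 and 23.8 CPM over all T cell-like cells, 1.5-fold (95% interval 0.977 to 2.36), an interval that includes 1. Of 21 measured regulatory T cell genes, 4 were higher and none lower, with a median log2 ratio of 0.35, and for anti-PD-1 against control the same list had a median of 0.27.

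Type 2 genes were higher chiefly through sub-cluster 12. Of 10 measured type 2 lymphocyte genes 5 were higher, with a median log2 ratio of 0.47, and without the 4 and 38 cells of sub-cluster 12 in the 2 libraries 1 of 9 was, with a median of 0.15. Il13, a type 2 cytokine that drives mucus and alternative macrophage activation, had 3 UMIs with YKL-5-124 and 103 in the combination, of which 1 cell held 42.5%. Gata3, the type 2 lineage factor, stood at 53.9, 75.3, 105 and 171 CPM, and Areg, a growth factor for epithelial repair, at 124, 64.7, 95.7 and 169 CPM. Tnfsf8, the CD30 ligand, stood at 59.4, 131, 80.3 and 166 CPM, but its log2 ratio of 0.96 was 0.49 without sub-cluster 12.

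Some of the highest ratios rest on few cells. Lgals7, which encodes a galectin, stood at 5.04, 8.66, 4.09 and 59.9 CPM, with UMIs in 58 cells of the 2 libraries and most of them in cycling cells and sub-cluster 12. Ifitm1, an interferon-induced membrane protein, stood at 5.04, 15.3, 65.0 and 147 CPM. Of its 468 UMIs in the combination, 396 lay in 15 CD4 effector or memory T-like cells. Rbpj, the DNA-binding partner of Notch, was spread more widely, at 31.7, 51.3, 26.6 and 56.1 CPM with UMIs in 168 cells and no cell above 2.60% of them, and was 2.11-fold (95% interval 1.54 to 2.93) YKL-5-124. The remaining genes named by rule on the higher side were Scand1, Cst3, Zfp622 and Eif3f, with log2 ratios of 1.05, 1.05, 0.83 and 0.79. Cst3, a cystatin abundant in myeloid cells, had UMIs in 642 cells of the 2 libraries, with 16.9% of them in 1 cell. It stood beside monocyte and macrophage markers that summed to 659 CPM with YKL-5-124 and 494 CPM in the combination, with C1qc and Mertk at 0 in both. The part of myeloid transcripts in the Cst3 ratio was not tested. Its log2 ratio fell short of 1.5-fold at 0.448 without sub-clusters led by genes of another lineage, 0.453 with cells thinned to 2000 UMIs and 0.562 with cells weighted equally.

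Few cytotoxic genes reached 1.5-fold in T cell-like cells. Of 23 measured members 2 were higher and 1 lower, and their median log2 ratio was -0.04. Without cycling T-like cells 3 of 24 were higher and 1 lower, with a median of 0.08. Gzmb, the protease that killer cells inject into targets, stood at 428, 142, 226 and 145 CPM, which is 0.643-fold (95% interval 0.564 to 0.735) YKL-5-124. Its log2 ratio of -0.60 became 0.343 without cycling T-like cells, so the direction turned on those cells. It fell short of 1.5-fold at -0.344 with the per-cell marker gate, -0.278 with cells thinned and -0.120 with cells weighted equally. Gzma, a second granule protease, stood at 1278, 379, 328 and 407 CPM and was 1.24-fold (95% interval 1.13 to 1.37). Without cycling T-like cells its log2 ratio was 1.838, and that of the chemokine gene Ccl4 was 1.638. With all T cell-like cells Ccl4 stood at 276, 173, 46.5 and 109.7 CPM, a ratio of 2.36 (95% interval 1.87 to 3.0) with 1 cell holding 22% of its UMIs. Ifng, the cytokine through which T cells act on tumour and myeloid cells, stood at 29.2, 22.7, 26.6 and 23.8 CPM, and its ratio of 0.896 (95% interval 0.621 to 1.30) gave no gap beyond counting error.

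**Figure D3:**
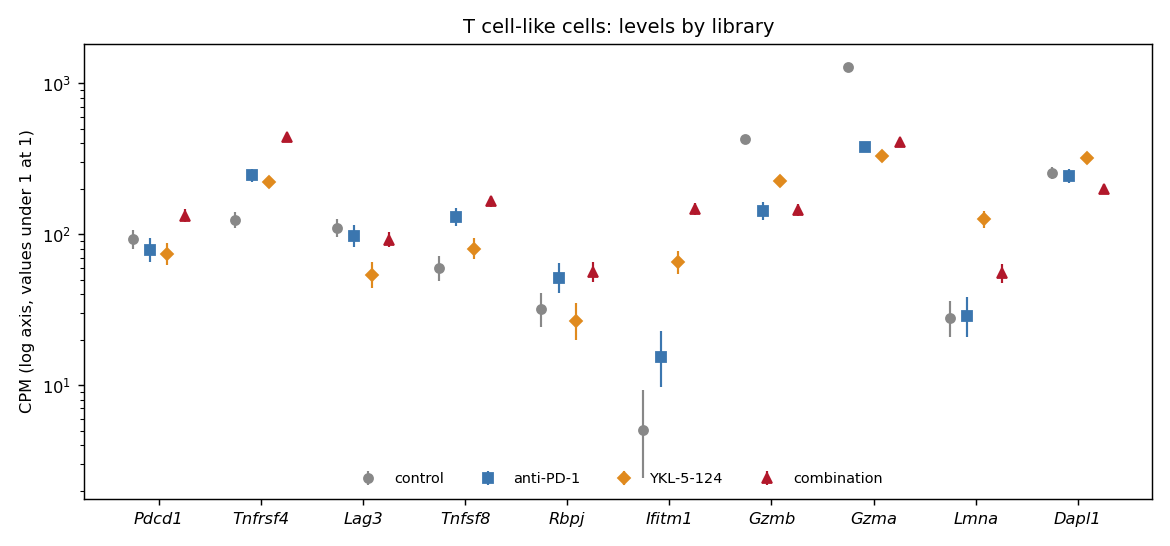
Level in T cell-like cells (CPM, vertical log axis) of 10 genes in the 4 libraries; bars are exact 95% Poisson intervals and levels under 1 CPM are drawn at 1. Pdcd1, Tnfrsf4, Lag3, Tnfsf8, Rbpj and Ifitm1 are higher in the combination than with YKL-5-124, Gzmb, Lmna and Dapl1 are lower, and Gzma differs by less than 1.5-fold.

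Among the genes lower in T cell-like cells of the combination, Lmna, a nuclear lamina protein, stood at 27.7, 28.7, 125 and 55.2 CPM and was 0.440-fold (95% interval 0.361 to 0.536) YKL-5-124. Anxa1, a lipid-binding regulator of inflammation, stood at 17.1, 20.7, 70.1 and 35.7 CPM. For both genes YKL-5-124 was the high library and the combination lay between it and the 2 libraries without inhibitor. Tmem176b and Tmem176a, linked in expression to IL-17 type T cells, had log2 ratios of -0.94 and -0.85, and Lmo4 -0.66, beside the smaller IL-17 type part given above. Dapl1, a gene of naive CD8 T cells, stood at 255, 244, 318 and 199 CPM, beside the smaller naive part. Socs3, a feedback inhibitor of cytokine receptors, stood at 211, 201, 239 and 144 CPM. Gmps, an enzyme of guanine nucleotide synthesis, and Cd81, a tetraspanin, had log2 ratios of -0.67 and -0.66. Neutrophil markers summed to 31.2, 32, 254 and 32.9 CPM in T cell-like cells with Ly6g at 0 in both, and their part in these lower values was not tested.

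Cell cycle genes were not higher in T cell-like cells of the combination. Of 53 measured G2/M genes none was higher and 2 were lower, Aurka and Nuf2, with a median log2 ratio of -0.18. All 44 measured G1/S genes stayed within 1.5-fold, with a median of -0.29. Mki67, a proliferation marker, stood at 23.2, 42.6, 123 and 114 CPM and Top2a, which untangles DNA before mitosis, at 67.5, 80.6, 241 and 189.6 CPM. Both inhibitor-treated libraries lay above the 2 others for these genes, and the ratio between them was 0.924 (95% interval 0.783 to 1.09) for Mki67. Cdk7 stood at 16.6, 14.0, 18.9 and 15.7 CPM.

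NK cell-like cells were more frequent in the combination, but a smaller part of their UMIs came from Ifng and Ccl3. Of 6772 genes measured, 360 were higher (5.32%) and 334 lower (4.93%), and the intervals of 127 and 142 of these leave 1. The other calls have intervals that include 1, from 495396 and 766761 UMIs in the lineage. Of 22 measured cytotoxic genes 2 were higher and 2 lower, with a median log2 ratio of -0.16 beside -0.02 over all genes.

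Ifng stood at 179.5, 140.1, 141 and 88.7 CPM in NK cell-like cells, and the combination, lowest of the 4, was 0.628-fold (95% interval 0.443 to 0.889) YKL-5-124. Its log2 ratio of -0.62 kept its sign but fell just short of 1.5-fold in several alternatives. It was -0.580 with a minimum of 1000 UMIs per cell, -0.551 with the marker gate and -0.583 at the finer clustering. With a pseudocount of 50 CPM it was -0.464. Ccl3, a chemokine that draws in myeloid cells, stood at 748, 688, 440.1 and 257 CPM, a ratio of 0.584 (95% interval 0.479 to 0.711). At an equal depth of 800 UMIs, 25.2%, 25.2%, 21.8% and 13.3% of NK cell-like cells had a Ccl3 UMI. Prf1, the pore-forming protein of cytotoxic granules, stood at 1846, 1608, 1756 and 1358 CPM and Gzmb at 2271, 2039, 2325 and 2006 CPM, with ratios of 0.773 (95% interval 0.706 to 0.847) and 0.863 (95% interval 0.799 to 0.932). Both were short of the call, and the combination was the lowest of the 4 libraries for each.

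Eomes, a transcription factor of mature NK cells, went the other way at 97.7, 154, 98.9 and 167 CPM, 1.69-fold (95% interval 1.21 to 2.40). Its log2 ratio was short of 1.5-fold at 0.551 with cells thinned and 0.543 with a pseudocount of 50 CPM. None of 25 measured NK receptor genes reached 1.5-fold in either direction, with a median of -0.07. By the naming rule the highest ratios were those of Plac8, Zfp622, Eif3f, Nup210 and Anp32b, with log2 ratios from 1.00 to 1.23. Nup210 is a nuclear pore protein and Anp32b a histone chaperone. The value of Plac8 rests on 12 and 54 UMIs and was -1.454 when cells were assigned by a marker gate instead of clusters. The lowest were Coro7, AI467606, Arl3, Flot1 and Gna15, with log2 ratios from -1.13 to -0.97 and under 50 UMIs each in either library. Neutrophil markers summed to 276 CPM in NK cell-like cells with YKL-5-124 and to 32.6 CPM in the combination, of 13 markers, with Csf3r, Cxcr2, Mmp9 and Ly6g at 0 in both.

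In B cell-like cells the antigen presentation genes differed little, and a few surface receptors were lower in the combination. Of 6552 genes measured, 128 were higher (1.95%) and 210 lower (3.21%), and the intervals of 99 and 173 leave 1. All 12 measured MHC class II genes, through which B cells present antigen, stayed within 1.5-fold, with a median log2 ratio of 0.14. Of 34 B cell activation genes 3 were lower: Cd9, a tetraspanin of marginal zone cells, at 68.6, 37.4, 98.3 and 52.4 CPM, the migration receptor S1pr1 at 116, 112, 116 and 67.6 CPM, and Fcrl5, an Fc receptor-like gene, with 24 and 6 UMIs. With doublets kept all 3 were short of the call, at log2 ratios of -0.441, -0.514 and -0.580. Cd9 was also short of it at the finer clustering (-0.566), with cells weighted equally (-0.529) and with cells thinned (-0.554). Socs3 stood at 53.5, 93.4, 48.0 and 94.9 CPM and was 1.98-fold (95% interval 1.41 to 2.80) YKL-5-124, the opposite of its direction in T cell-like cells, a difference that was not tested.

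The other genes named by rule in B cell-like cells were Scand1 (1.27 on the log2 scale), Zfp622 (0.95), Snx29 (0.80) and Rab2a (0.77) on the higher side. Ms4a4b, Pde6d, Emb and Gm42722 had log2 ratios from -1.23 to -0.88. Ms4a4b is a T cell membrane protein, and its direction turned to 0.142 with doublets kept and 0.021 at a coarser clustering. T cell markers summed to 280 CPM in B cell-like cells with YKL-5-124 and 99.2 CPM in the combination. S100a8 was lower in B cell-like cells at 10.9, 8.17, 156 and 15.3 CPM, beside its 2370 and 677 CPM in free RNA.

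Tumour-like cells of the 2 libraries were close to each other, with a modest gap in interferon gamma targets. Of 8936 genes measured over 7934331 and 7050323 UMIs, 20 were higher (0.224%) and 7 lower (0.0783%) in the combination. Of 22 measured interferon gamma response genes 2 were higher and none lower, with a median log2 ratio of 0.23 beside -0.02 over all genes. For anti-PD-1 against control the median of these genes was -0.07.

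Igtp, an interferon-inducible GTPase, stood at 24.3, 23.5, 13.2 and 29.1 CPM in tumour-like cells and was 2.20-fold (95% interval 1.73 to 2.81) YKL-5-124. Cxcl10, the interferon gamma-induced chemokine that draws CXCR3-bearing T and NK cells, stood at 13.5, 13.7, 11.1 and 24.4 CPM, a ratio of 2.20 (95% interval 1.69 to 2.88), with 1 cell holding 16.9% of its UMIs. The immunoproteasome subunit gene Psmb9 stood at 78.3, 74.8, 61.1 and 91.6 CPM, short of the call. For these 3 genes YKL-5-124 was the lowest library and the combination the highest. The calls of Igtp and Cxcl10 depended on the processing. Their log2 ratios were 0.562 and 0.492 with cells thinned to 2000 UMIs, short of 1.5-fold. With a pseudocount of 50 CPM they were 0.323 and 0.284. In free RNA Cxcl10 stood at 14.8, 14.0, 21.5 and 26.2 CPM, and the part of free RNA in its ratio was not tested.

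Antigen presentation and the PD-1 ligand differed little. None of 21 measured MHC class I genes and none of 20 interferon-stimulated genes reached 1.5-fold, with medians of 0.08 and 0.11. Cd274 stood at 10.0, 11.8, 13.1 and 13.1 CPM, a ratio of 0.996 (95% interval 0.744 to 1.33). T cell markers summed to 53.8, 53.1, 50.5 and 81.1 CPM in tumour-like cells, so transcripts of T cells were present there at a low level, and their part in these values was not tested.

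No division or glycolysis gene was called. All 60 G2/M genes and all 51 G1/S genes stayed within 1.5-fold, with medians of -0.11 and -0.10, and Mki67 stood at 295, 340.1, 367 and 387 CPM, 1.05-fold (95% interval 1.00 to 1.11). At an equal depth of 1500 UMIs, 30.5% of tumour-like cells with YKL-5-124 and 35.2% in the combination had a UMI of Mki67, and the ratio of 1.15 had an interval from 0.919 to 1.45. Of 27 measured glycolysis and hypoxia genes none reached 1.5-fold, and their median was -0.23. The largest gaps among them were in Aldoa, a glycolytic aldolase, at 424, 417, 512 and 359.6 CPM, Slc16a3, a lactate exporter, at 200.1, 169, 227 and 162 CPM, and Ldha, which makes lactate, at 896, 885, 995 and 776 CPM. In each of the 3 the combination was the lowest library and YKL-5-124 the highest. None of 22 measured CDK7 and TFIIH genes was called, and Cdk7 stood at 14.7, 14.8, 19.3 and 14.6 CPM.

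Neuroendocrine genes differed little. Of 31 measured neuroendocrine genes 1 was higher, Pcsk1n, a prohormone convertase inhibitor, at 127, 262, 247 and 382 CPM. Nkx2-1, a lung lineage factor, stood at 88.2, 122, 97.5 and 142 CPM. Other genes named by rule were Scand1, Gm42418, Eif3f, B230219D22Rik, Smap2, Rala, Prkca and Yipf4, with log2 ratios from 0.59 to 1.01. With anti-PD-1 against control Scand1, Eif3f, Rala and Yipf4 were also past 1.5-fold, with log2 ratios of 1.26, 0.89, 0.76 and 0.72. B230219D22Rik, Smap2 and Prkca had log2 ratios of 0.47, 0.51 and 0.54 there, short of 1.5-fold, and Gm42418 had -0.25. Rala is a small GTPase and Prkca a protein kinase C. On the lower side stood Pde1a, a cyclic nucleotide phosphodiesterase, at -0.56, with Apbb1, Akap8, Kif20a, Shcbp1, Cers2, Nde1 and Zscan21 between -0.43 and -0.38, which is short of 1.5-fold.

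In monocytes and macrophages, genes of alternative activation and several chemokines were higher in the combination, and some complement and monocyte genes were lower. Of 6532 genes measured, 136 were higher (2.08%) and 60 lower (0.919%). Of 17 measured alternative activation genes 10 were higher and none lower, with a median log2 ratio of 0.62 beside 0.00 over all genes. For anti-PD-1 against control the median of these genes was -0.01. At a finer clustering the median was 0.121. There 18 of these cells with YKL-5-124 and 44 in the combination, which held most of the Ccl17 UMIs, were named conventional dendritic cell-like instead.

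Ccl24, an eotaxin secreted by alternatively activated macrophages, stood at 97.9, 290.2, 30.0 and 444 CPM and was 14.8-fold (95% interval 11.6 to 19.1) YKL-5-124, with UMIs in 36 cells of the 2 libraries and 30.1% of them in 1 cell. Arg1, the arginine-consuming enzyme of alternatively activated and suppressive myeloid cells, stood at 11.9, 298, 31.7 and 84.7 CPM, so anti-PD-1 alone held more than the combination. Mgl2, a lectin of this state, stood at 294, 180.4, 96.5 and 328 CPM, 3.40-fold (95% interval 2.93 to 3.96), and its log2 ratio of 1.67 was 0.503 at the finer clustering, short of 1.5-fold. Mrc1, the mannose receptor, stood at 38.2, 37.9, 23.5 and 40.4 CPM, 1.72-fold (95% interval 1.23 to 2.43), with a log2 ratio of 0.59 that was 0.184 at the finer clustering. For Mgl2 and Mrc1 the combination was at about the control level and YKL-5-124 was the low library.

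Ccl17, a chemokine that draws CCR4-bearing T cells, regulatory cells among them, stood at 668, 252, 689 and 2109 CPM, above all 3 other libraries and 3.06-fold (95% interval 2.90 to 3.24) YKL-5-124. Most of its UMIs in the combination lay in an unnamed sub-cluster of 23 and 42 cells led by Retnla, Ccl17, Cd209a and Mgl2. Without that sub-cluster Ccl17 stood at 259.8 CPM with YKL-5-124 and 686 CPM in the combination. Its log2 ratio was then 1.368, so the direction did not rest on that sub-cluster alone. At the finer clustering the ratio turned to -1.736. Of the 44 cells of the combination named dendritic there, 31 came from that sub-cluster and held 4175 Ccl17 UMIs, and the other 13 held 1563. The cells that kept the monocyte or macrophage name held 554 Ccl17 UMIs with YKL-5-124 and 165 in the combination. In free RNA Ccl17 stood at 32.5, 20.6, 73.0 and 257 CPM. Ccl22, which shares the receptor of Ccl17, stood at 41.8, 15.7, 16.9 and 39.3 CPM.

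Some further chemokine genes were higher as well. Of 19 measured chemokine genes of macrophages and dendritic cells 6 were higher and none lower, with a median of 0.31. Ccl7, a ligand of the monocyte receptor CCR2, stood at 16.7, 35.3, 109 and 259 CPM and was 2.38-fold (95% interval 2.06 to 2.76) YKL-5-124. Its UMIs came from 40 cells of the 2 libraries, with 18.4% of them in 1 cell. Mmp12, the macrophage elastase, stood at 271, 169.9, 112 and 319 CPM, with a log2 ratio of 1.43 that was -0.022 at the finer clustering. AA467197 stood at 129, 99.3, 85.6 and 395 CPM in 112 cells. Cd274 stood at 19.1, 36.6, 20.4 and 27.5 CPM, a ratio of 1.35 (95% interval 0.926 to 1.98). Cxcl9, an interferon gamma-induced T cell attractant, had 8 and 36 UMIs, the second number being the combination, and Cxcl10 stood at 29.8, 96.7, 45.6 and 49.0 CPM.

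**Figure D4:**
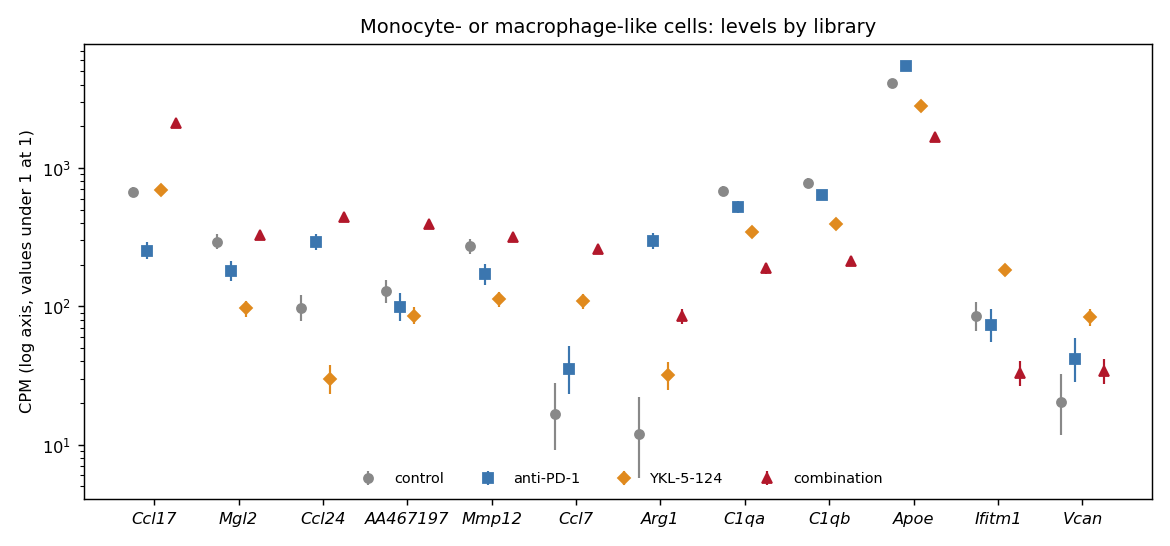
Level in monocyte or macrophage-like cells (CPM, vertical log axis) of 12 genes in the 4 libraries; bars are exact 95% Poisson intervals. Ccl17, Mgl2, Ccl24, AA467197, Mmp12, Ccl7 and Arg1 are higher in the combination than with YKL-5-124, and C1qa, C1qb, Apoe, Ifitm1 and Vcan are lower. Ifitm1 was within 1.5-fold, at -0.274 on the log2 scale, with the per-cell marker gate, and C1qa was at -0.493 with cells weighted equally.

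Several complement and resident macrophage genes were lower in the combination. Of 20 measured members 7 were lower and 2 higher, with a median of -0.22. C1qa, which begins the classical complement cascade, stood at 676, 520.3, 342 and 188 CPM and was 0.549-fold (95% interval 0.491 to 0.614) YKL-5-124, and its partner C1qb stood at 777, 637, 393 and 213 CPM. The log2 ratio of C1qa, -0.83, was -0.493 with cells weighted equally, short of 1.5-fold. Apoe, a lipid carrier made by tissue macrophages, stood at 4075, 5399, 2804 and 1675 CPM, 0.597-fold (95% interval 0.575 to 0.620). For the 3 genes control was above YKL-5-124 and the combination was the lowest library.

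Of 26 measured inflammatory monocyte genes 8 were lower and 1, Ccl7, higher, with a median of -0.22. Of the 8, the 5 genes Hp, Lcn2, Mmp8, S100a8 and S100a9 are also neutrophil genes, and the other 3 were Cd14, Saa3 and Vcan. Cd14, a receptor for bacterial lipopolysaccharide, stood at 1358, 1452, 2764 and 1765 CPM, 0.639-fold (95% interval 0.615 to 0.663). Vcan, a matrix proteoglycan of classical monocytes, stood at 20.3, 41.8, 83.0 and 34.0 CPM, 0.409-fold (95% interval 0.316 to 0.526). Mmp8, a collagenase that also leads the granule-rich neutrophil cluster, stood at 31.0, 51.0, 129 and 46.1 CPM, beside 88.1 CPM with YKL-5-124 and 23.7 CPM in the combination in free RNA, and the part of free RNA in its ratio was not tested. Classical monocyte-like cells made up 31.8% of this lineage with YKL-5-124 and 19.0% in the combination, a ratio of 0.598 (95% interval 0.470 to 0.759). Nonclassical monocyte-like cells, which patrol vessels, made up 34.4% and 39.2%.

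S100a8 in this lineage stood at 77.6, 62.7, 179 and 51.8 CPM, beside its free RNA level given above, and neutrophil markers summed to 459, 299, 526 and 223 CPM with Ly6g at 0 in both compared libraries. The granule genes Elane and Mpo, made by neutrophil and monocyte precursors, had 589 and 435 UMIs with YKL-5-124 and 4 and 1 in the combination. They came mainly from a sub-cluster of 9 cells, all of the YKL-5-124 library. T cell markers summed to 187 and 566 CPM, beside a sub-cluster led by T cell genes of 17 and 47 cells. Without it and a similar one led by B cell genes, alternative activation genes had a median of 0.75 with 10 of 17 higher.

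Interferon-stimulated genes were higher in monocytes and neutrophils of the combination, while few reached 1.5-fold in lymphocytes and none of those measured did in tumour cells. These genes are switched on by type I and type III interferons through the complex ISGF3, which binds the repeated GAAA element of their promoters. The element searched was GAAA, then any 2 bases, then GAAA, on either strand and with overlaps allowed, in windows of 250 bases before to 50 bases after the RefSeq start (GRCm38.p6). Of 27025 promoters 1079 held it (3.99%), and of the 42 of 55 listed interferon-stimulated genes that matched the table, 22 did (52.4%). Interferon-stimulated genes are known for this element, so the share describes the list and is no result of these libraries. Of 24 listed genes higher in both classical monocyte-like and neutrophil-like cells, 16 matched the table and 10 of those held the element. The 4 of these with the largest mean log2 ratio over the 2 cell groups are shown as examples of the element, with matches in capitals, each printed 5′ to 3′ on the strand of the gene.
Slfn5 (chr11:82951852-82952151, plus strand): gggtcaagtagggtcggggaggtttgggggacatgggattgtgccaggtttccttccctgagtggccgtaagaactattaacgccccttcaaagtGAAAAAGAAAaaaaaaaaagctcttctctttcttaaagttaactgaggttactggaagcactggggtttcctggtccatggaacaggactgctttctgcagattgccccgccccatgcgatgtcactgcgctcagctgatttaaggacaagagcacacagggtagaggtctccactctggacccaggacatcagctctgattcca
Rsad2 (chr12:26456403-26456702, minus strand): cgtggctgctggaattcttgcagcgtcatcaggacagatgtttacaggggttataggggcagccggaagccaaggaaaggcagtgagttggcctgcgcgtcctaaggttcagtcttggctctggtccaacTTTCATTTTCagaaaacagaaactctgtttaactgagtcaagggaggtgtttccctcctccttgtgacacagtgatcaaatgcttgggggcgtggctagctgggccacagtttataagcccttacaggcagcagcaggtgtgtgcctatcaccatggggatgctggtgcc
Ifi203 (chr1:173942443-173942742, minus strand): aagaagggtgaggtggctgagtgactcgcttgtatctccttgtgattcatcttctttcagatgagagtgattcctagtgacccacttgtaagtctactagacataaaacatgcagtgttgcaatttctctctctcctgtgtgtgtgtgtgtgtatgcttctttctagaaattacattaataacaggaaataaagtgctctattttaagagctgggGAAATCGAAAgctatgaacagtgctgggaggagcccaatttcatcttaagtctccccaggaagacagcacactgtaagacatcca
Isg15 (chr4:156200769-156201068, minus strand): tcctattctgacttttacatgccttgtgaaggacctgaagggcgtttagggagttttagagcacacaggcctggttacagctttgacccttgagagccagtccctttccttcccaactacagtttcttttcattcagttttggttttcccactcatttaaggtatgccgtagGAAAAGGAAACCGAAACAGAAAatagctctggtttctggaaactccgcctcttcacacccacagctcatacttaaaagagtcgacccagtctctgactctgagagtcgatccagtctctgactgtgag
The window of Isg15 holds 3 overlapping matches and the other windows hold 1 each, on the opposite strand in Rsad2.

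In classical monocyte-like cells, 34 of 52 measured interferon-stimulated genes were higher and none lower, with a median log2 ratio of 0.77. There 6.89% of 6097 genes were called higher in all. A small sub-cluster led by these genes, with 5 and 10 cells, was then left out, and 30 of 48 were higher and none lower, with a median of 0.67 and 7.46% of all genes called. The summed level of the list was 16880, 13080, 11120 and 17090 CPM in the 15, 23, 165 and 111 cells that remained. The combination was thus at the control level, and YKL-5-124 was the lowest library.

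The gap was spread over the cells. At an equal depth of 1500 UMIs, 130 of 163 cells with YKL-5-124 (79.8%) and 104 of 108 in the combination (96.3%) had at least 10 UMIs of the list, and unthinned the shares were 98.8% and 100%. Slfn5, of a family that restrains cell growth and viral RNA, stood at 456, 120.2, 107 and 287 CPM, 2.69-fold (95% interval 2.02 to 3.60). Isg15, a ubiquitin-like protein attached to other proteins, stood at 167, 65.6, 93.4 and 203 CPM, 2.18-fold (95% interval 1.58 to 3.02). Ifi203, a DNA-binding protein of the interferon-inducible p200 family, stood at 167, 98.3, 106 and 232 CPM. Rsad2 (viperin), an antiviral enzyme, was low in this set, at 30.4, 0, 2.71 and 22.1 CPM.

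Nonclassical monocyte-like cells showed the same direction to a smaller extent, with 14 of 42 measured genes higher, none lower and a median of 0.37, beside 6.01% of all 6225 genes. The list summed to 11320, 9756, 9822 and 12040 CPM. Some MHC class II genes were lower, 3 of 7 measured in nonclassical cells and 4 of 7 in classical cells without the small sub-cluster. The shares of all genes called lower in these subsets are not given here, so the counts are not read as a direction of the list. H2-Ab1, a class II beta chain, stood at 1267, 706, 1262 and 814 CPM in nonclassical cells. Over the whole lineage none of 10 measured class II genes was called.

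C1q-rich macrophage-like cells went against the monocytes, with 42 of 51 interferon-stimulated genes lower, none higher and a median of -1.13. This set was small, 13, 22, 28 and 43 cells, and 17.6% and 17.7% of its 6398 genes were called higher and lower. The list summed to 3915, 10640, 9367 and 3733 CPM, so the 2 single-agent libraries were high, and 1 cell held 19.0% of the YKL-5-124 sum and another 14.2% of the combination sum. Isg15 stood at 315, 422, 357 and 137 CPM in these cells. Of the listed genes, 23 were higher in classical monocyte-like and lower in C1q-rich cells, and 10 of the 17 whose promoter was searched held the element. At an equal depth of 1500 UMIs, 14 of 28 cells with YKL-5-124 and 11 of 41 in the combination had at least 10 UMIs of the list.

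**Figure D5:**
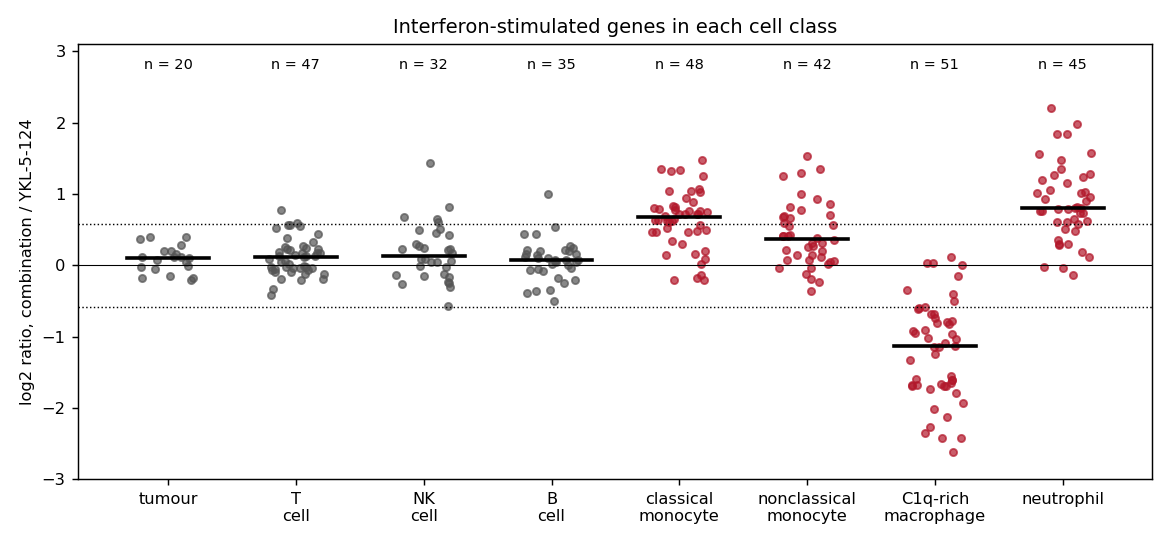
Log2 ratio of combination over YKL-5-124 (vertical axis, pseudocount of 10 CPM) for each measured interferon-stimulated gene, by cell group; each point is a gene, bars are medians and dotted lines mark 1.5-fold. Medians are 0.11 in tumour-like cells, 0.67 in classical monocyte-like cells without the small sub-cluster, 0.37 in nonclassical cells, -1.13 in C1q-rich cells and 0.80 in neutrophil-like cells.

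In lymphocytes few of these genes reached 1.5-fold. Over all measured genes, 0.961% were called higher in T cell-like, 5.32% in NK cell-like and 1.95% in B cell-like cells. The parts of the list called higher, given next, were above these shares, and the difference was not tested. Of 47 measured in T cell-like cells 2 were higher, Slfn5 and Ifih1, with a median of 0.11, and of 32 in NK cell-like cells 5 were, 3 of them with an interval above 1, with a median of 0.13. Of 35 in B cell-like cells 1 was higher, Oasl1, with a median of 0.08. No listed gene was lower in these 3 lineages. The order of medians across lineages follows 1 library per side and was not tested.

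Neutrophil-like cells of the combination had lower levels of secondary granule genes and higher levels of interferon-stimulated and chemokine genes than those of YKL-5-124. A granule-rich cluster led by Ngp, Camp and Ltf held 12 of 100, 10 of 105, 260 of 684 and 25 of 208 neutrophil-like cells, and the largest cluster held 415 and 147 of the 2 libraries compared. At the finer clustering the cluster led by Ngp, Camp and Ltf held only 0, 1, 259 and 12 cells. A separate cluster there, led by Gngt2, Ear2 and Lst1, held 12, 10, 57 and 19. The 2 libraries without inhibitor thus had hardly any cell in the finer granule-rich cluster. Of 18 secondary granule genes, made while neutrophils mature in bone marrow, 13 were lower in the combination and none higher, with a median of -1.73, and with TMM scaling 17 were lower with a median of -2.14. Of 5496 genes measured in this lineage 1515 were higher (27.6%) and 292 lower (5.31%), and their median log2 ratio was 0.30, so list medians are given beside it. Calls whose interval excludes 1 numbered 1051 higher and 185 lower. With TMM scaling, which centres the trimmed mean of the log ratios, the balance turned: the median of all genes was -0.10, and 359 genes were higher and 805 lower. Prok2 and Serpinb1a had log2 ratios of -2.76 and -2.38, and the latter was 0.229 in the largest cluster alone.

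Ltf, the iron-binding lactoferrin of secondary granules, stood at 15, 15.2, 3224 and 257 CPM and Camp, an antimicrobial peptide of the same granules, at 0, 0, 6607 and 652 CPM. Both were low in the 2 libraries without inhibitor, and the combination lay between these and YKL-5-124. Cd177, a neutrophil surface protein, stood at 7.49, 45.7, 588 and 115 CPM. In the largest cluster alone, 7 of 15 measured secondary granule genes were lower, with a median of -0.52.

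Interferon-stimulated genes were higher in neutrophil-like cells, 33 of 45 measured and none lower, with a median of 0.80 against 0.30 over all genes. With TMM scaling 15 of 42 were higher and none lower, with a median of 0.41 against -0.10. In the largest cluster alone, where 19.7% and 10.2% of 5034 genes were called higher and lower, 20 of 41 were higher and none lower, with a median of 0.58 against 0.11. The list summed to 8438, 6624, 5015 and 8705 CPM in neutrophil-like cells. At an equal depth of 500 UMIs, 32 of 100, 21 of 105, 105 of 684 and 63 of 208 cells had at least 5 UMIs of the list, so the combination again stood near control and YKL-5-124 lowest.

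Slfn5 stood at 52.5, 76.1, 27.6 and 138 CPM in neutrophil-like cells and was 5.02-fold (95% interval 3.22 to 7.87) YKL-5-124, from 39 and 48 UMIs. Isg15 stood at 1004, 327, 268 and 629 CPM, 2.35-fold (95% interval 1.98 to 2.78). Ifi27l2a, a further interferon-stimulated gene, stood at 997, 708, 192 and 914 CPM, beside 256, 255, 475 and 971 CPM in free RNA, and the part of free RNA in its neutrophil level was not tested. Isg15 in free RNA was 74.8, 74.5, 89.2 and 116 CPM, below its level in the cells.

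The chemokine genes Ccl3 and Ccl4 stood at 315, 1759, 195 and 842 CPM and at 179.8, 2078, 172 and 825 CPM in neutrophil-like cells, highest with anti-PD-1 alone. A further cluster, led by Il1rn, Cstb, Cxcl3 and Spp1, held 6, 18, 9 and 36 cells and is led by related genes. In the largest cluster alone Ccl3 stood at 151 CPM with YKL-5-124 and 320.3 CPM in the combination. Cstb, a cathepsin inhibitor, and Mt1, a metal-binding protein, had log2 ratios of 2.15 and 2.07. In the largest cluster alone these were 0.289, short of 1.5-fold, and 1.494, and that of Ccl4 was 0.901. Of 78 ribosomal protein genes 53 were higher, with a median of 0.66, and with TMM scaling 1 was higher, with a median of 0.18. Tumour markers summed to 37.5, 99.0, 77.7 and 216 CPM in this lineage with Dlk1 at 0 in both compared libraries, and their part in these ratios was not tested.

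Few genes differed in the same direction across lineages. Of 4693 genes measured in tumour, T, NK, B and monocyte or macrophage-like cells, 8 were higher and 4 lower in at least 3 of the 5. Scand1, which encodes a SCAN domain protein, had log2 ratios of 1.01, 1.05, 0.88, 1.27 and 1.00. Eif3f, a subunit of translation initiation factor eIF3, had 0.73, 0.79, 1.09, 0.66 and 0.67. Both were called in all 5, and both were also higher with anti-PD-1 than in control in each of the 5, from libraries not used for the first ratios. In free RNA Scand1 stood at 59.5, 76.4, 60.4 and 91.2 CPM and Eif3f at 275, 346, 283 and 351 CPM, so the same order of libraries held outside the cells. Retnlg, S100a8 and S100a9, neutrophil transcripts that were abundant in the free RNA of YKL-5-124, were 3 of the 4 genes lower in at least 3 lineages. The fourth was Car2, a carbonic anhydrase.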

How the data were processed

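Single-cell libraries (10x Genomics 3' chemistry) were made from whole tumour-bearing lungs, 1 per treatment group. The authors deposited raw UMI counts per gene and barcode, 31053 genes by 737280 barcodes, with software version 3.0.0 per the file headers. The submitters' processing notes name bcl2fastq, Cell Ranger and hg19, whereas the gene identifiers are mouse (30934 of 31053 are in GENCODE M21), so no source used here gives the build behind the counts. No per-sample column was left unmapped.

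A barcode was kept when it had 500 UMIs or more and 300 genes or more, with mitochondrial UMIs no higher than 10%. Cells holding under 20% of their barcode's UMIs over the 4 libraries were left out, a choice made after seeing the data. Doublets were scored per library with Scrublet as implemented in Scanpy. Its automatic threshold marked between 0.0635% and 1.21% of cells, so the highest-scoring 0.8% per 1000 cells were removed instead (79, 42, 115 and 107 cells). Clustering used 2000 variable genes, 30 principal components, 15 neighbours and Leiden at resolution 1. Naming a cluster took 3 or more markers, each present in 10% or more of the cluster and 2-fold or more above the remaining cells. Clusters led by genes of another lineage remained unnamed, and T and myeloid cells were clustered again in the same way. Sub-clusters led by genes of another lineage had no subset name but stayed in the shares and sums of their lineage. Beside sub-cluster 12, these held 21 and 22 T cell-like cells with YKL-5-124 and the combination. Among monocyte or macrophage-like cells 1 held 17 and 47 cells and another 4 and 5. Names were rebuilt here and are not the authors' own.

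UMIs were summed per lineage and library and scaled to CPM. Ratios used a pseudocount of 10 CPM, genes with a mean of at least 10 CPM, and a call at 1.5-fold. Intervals of shares are exact binomial and intervals of ratios are exact conditional binomial, at 95%, and UMIs of a cell are not independent of each other. Thinning drew a fixed number of UMIs per cell and left out shallower cells. The procedure was tested on simulated data. Genes were named by rule: for tumour-like and T cell-like cells the top 10 and bottom 10 by log2 ratio, and elsewhere the top 5 and bottom 5, with at least 50 CPM in either library, at least 50 UMIs, a UMI in at least 10 cells and no cell above 20% of the UMIs. Not eligible were haemoglobin, antigen receptor, mitochondrial, ribosomal and sex-linked genes or another lineage's markers, and up to 5 members of each described list and 11 fixed genes such as Pdcd1, Cd274 and Ifng were added. Some genes that met the rule are not reported here. The further genes described, and all subsets set apart, were chosen after their values were seen. The comparison, the members and the 35 gene lists were chosen with earlier results of these data known. Promoter sequences are those of RefSeq (GRCm38.p6).

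Scanpy 1.11.5 with leidenalg 0.10.2 and igraph 0.11.9 did the clustering, under Python 3.11.15 with scikit-learn 1.9.0, SciPy 1.17.1, NumPy 2.4.6, pandas 2.3.3 and Matplotlib 3.10.9.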

Additional observations from a re-analysis of the deposited data

Results flagged for a closer look

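In 9 results the combination differed from YKL-5-124 alone in the opposite direction to anti-PD-1 from control. The 2 ratios share no library, each rests on 1 library a side, and the difference between them was not tested. The endothelial cell-like share was 4.04-fold with the inhibitor as background and 0.274-fold without it. The neutrophil-like share was 0.316-fold and 1.44-fold. Among genes, on the log2 scale, Cd81 in T cell-like cells was at -0.66 and 0.83, Plac8 in NK cell-like cells at 1.23 and -0.87, and Gm42722 in B cell-like cells at -0.875 and 0.92. In monocyte or macrophage-like cells Mgl2 was at 1.67 and -0.67, Ccl17 at 1.60 and -1.37, Mmp12 at 1.43 and -0.64, and Vcan at -1.08 and 0.77. For Mgl2 and Mmp12 the anti-PD-1 library lay between control and YKL-5-124, with Mmp12 at 271, 169.9, 112 and 319 CPM. Some of these contrasts depended on how cells were assigned. At the finer clustering the combination against YKL-5-124 was at 0.503 for Mgl2, -1.736 for Ccl17 and -0.022 for Mmp12. With the marker gate Plac8 was at -1.454. Ccl17 and Plac8 then had the sign given above for anti-PD-1 against control, a ratio that was not taken again under these settings.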

How the results depend on the processing

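No paired analysis was possible because each group has 1 library, and for the same reason no replicate could be left out. Of 369 values of 28 comparison results under alternatives, 310 stayed close to the reported ones and 59 moved. The alternatives that keep minor copies or leave out a sub-cluster or cluster were added after seeing the data. The tumour-like share ratio of 0.80 was 0.907 with minor copies kept and 0.703 outside the neutrophil and monocyte or macrophage-like lineages, and on that denominator T and B cell-like ratios were 1.31 and 0.644. The conventional dendritic ratio of 1.75 was 2.64 at resolution 0.5 and 2.60 with minor copies kept.

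Counts of called genes depend on the pseudocount and the minimum level. With a pseudocount of 1 CPM, higher and lower genes numbered 76 and 26 in tumour-like, 214 and 220 in T cell-like, 714 and 713 in NK cell-like, 369 and 522 in B cell-like and 337 and 178 in monocyte or macrophage-like cells. With a pseudocount of 50 CPM they numbered 2 and 4, 12 and 7, 14 and 12, 4 and 8, and 23 and 18 in the same order. With a minimum of 50 CPM they numbered 8 and 3, 20 and 12, 48 and 60, 18 and 29, and 35 and 23. With no minimum, 611 genes were higher in NK cell-like cells, and 202 were higher and 319 lower in B cell-like cells. Weighting cells equally gave 39 higher and 25 lower genes in tumour-like cells and 92 lower in T cell-like cells. Thinning cells to 2000 UMIs gave 208 and 218 in tumour-like cells, 99 lower in T cell-like cells, and 210 and 141 in monocyte or macrophage-like cells. The per-cell marker gate gave 3 lower genes in tumour-like cells and 108 and 238 higher in T and B cell-like cells, keeping doublets gave 14 lower in tumour-like cells, and leaving out cycling cells gave 89 lower in T cell-like cells. In neutrophil-like cells, where 1515 genes were higher and 292 lower, the counts were 359 and 805 with TMM scaling, 340 and 106 with a pseudocount of 50 CPM, 539 and 135 with a minimum of 50 CPM, and 993 and 515 in the largest cluster alone, and 448 were lower with no minimum.

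In monocyte or macrophage-like cells the MHC class II median of 0.174 was -0.227 at resolution 2, 0.018 with cells weighted equally and -0.086 without the sub-cluster led by Retnla and Ccl17. The alternative activation median was 0.121 at resolution 2, 0.305 with a pseudocount of 50 CPM, 0.351 with no minimum and 0.334 with cells thinned. Of 1720 alternative values of 116 called genes, 1713 had the same sign and 1566 stayed past 1.5-fold, and 62 genes were within 1.5-fold in at least 1 alternative. Among these, on the log2 scale, Areg in T cell-like cells was 0.267 with the marker gate, Emb in B cell-like cells -0.149 with doublets kept, and Ccl22 in monocyte or macrophage-like cells 0.471 with cells thinned. The signs that turned, on the log2 scale, were Gzmb in T cell-like cells (0.343 without cycling cells), Plac8 in NK cell-like cells (-1.454 with the marker gate), Ms4a4b in B cell-like cells (0.142 with doublets kept, 0.021 at resolution 0.5), Ccl17 (-1.736) and Mmp12 (-0.022) at resolution 2, and Serpinb1a in neutrophil-like cells (0.229 in the largest cluster alone). The cause of these shifts was not tested. Calls whose interval excludes 1 were 127 of 360 higher and 142 of 334 lower in NK, 1051 of 1515 and 185 of 292 in neutrophil, and 99 of 128 and 173 of 210 in B cell-like cells, so depth limits NK and neutrophil-like cells most. In tumour, T and monocyte or macrophage-like cells the interval of every call excluded 1.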
